A study of Mus musculus with 2 samples.

Results

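The genes described here are the m6A machinery, the proteins that write, read and erase N6-methyladenosine in RNA. The members are the protein-coding transcripts, by the GENCODE M21 annotation of GRCm38, of 10 genes chosen by name: the writer subunits Mettl3, Mettl14, Wtap, Zc3h13 and Rbm15, the readers Ythdf1, Ythdf2, Ythdf3 and Ythdc1, and the eraser Alkbh5. They comprise 30 transcripts of the 49490 protein-coding transcripts, of 21574 genes, in the table analysed. The annotation lists 32 protein-coding transcripts for these genes, of which 1 of Wtap and 1 of Zc3h13 were not analysed here. On GRCm38 the writers lie at chr14:52294841-52305128 (Mettl3), chr3:123368297-123386108 (Mettl14), chr17:12966796-12994169 (Wtap), chr14:75284373-75344426 (Zc3h13) and chr3:107325421-107333673 (Rbm15). The readers lie at chr2:180904377-180920949 (Ythdf1), chr4:132184912-132212303 (Ythdf2), chr3:16183212-16217037 (Ythdf3) and chr5:86804221-86836659 (Ythdc1), and the eraser at chr11:60536381-60558512. Each transcript has 1 value for its exons and, where it has introns, 1 value for all of them. The cells were wild-type mouse embryonic stem cells of the male DTCM23/49 line, freed of feeder cells and grown in serum with leukemia inhibitory factor. They received 200 µM 4-thiouridine (4sU), a uridine analogue that is taken up into RNA as it is made, for 10 min. The RNA with 4sU (labeled) was separated from the RNA without it (unlabeled), and each was sequenced as 1 library of replicate 1, so there are 2 libraries from 1 culture and no untreated sample. Of the second library, the submitters' description says preexisting RNA and its title says total. It is treated here as the unlabeled fraction.

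As background, m6A is the most abundant internal modification of messenger RNA. It is placed in the nucleus by a complex whose catalytic subunit is Mettl3. Mettl14 holds the RNA substrate, and Wtap, Zc3h13 and Rbm15 localize the complex and bring it to its sites. Proteins with a YTH domain bind the modified base. Ythdc1 does so in the nucleus, where it acts in splicing and export, and the Ythdf proteins do so in the cytoplasm, where Ythdf2 hands transcripts to the decay machinery. Alkbh5 removes the mark. In embryonic stem cells m6A is best known for shortening the life of transcripts of pluripotency factors, and loss of Mettl3 impairs the exit from pluripotency.

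The deposited values are relative abundances per length, given as TPM, although their sum per library is 10 times what TPM values add up to. Every exon or intron value below is in this deposited unit. Read depth is unknown, there is no replicate in either group, and so no value has an error, no test was possible, and the order of neighbouring values cannot be told from chance variation. In bulk RNA a transcript present in few cells and one present at a low level in all cells cannot be told apart. All 8 embryonic stem cell markers were present, with unlabeled exon sums from 72.9 for Zfp42 to 6580 for Tdgf1. Feeder fibroblast markers summed to 16.2 in the unlabeled library over 5 genes, with Col3a1 and Postn at 0 in both libraries. Summed unlabeled values were 7.82 for 4 primitive endoderm markers, 3.71 for 3 mesoderm markers and 16.8 for 3 trophectoderm markers. The 3 neural markers summed to 97.5, of which Pax6 took 70.5.

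All 10 genes were expressed. Their exon values, summed over protein-coding transcripts and averaged over the libraries, lay between percentile 53.7 (Alkbh5) and 93.8 (Wtap) of the 14118 protein-coding genes with a mean above 1. In the unlabeled library, the most abundant single coding transcript of each gene had an exon value of 285 for Ythdc1, 246 for Ythdf3, 223 for Ythdf1 and 219 for Wtap. Zc3h13 followed with 157. The lower values were 91.7 for Mettl14, 83.8 for Mettl3, 82.7 for Ythdf2, 70.5 for Rbm15 and 61.3 for Alkbh5. The unlabeled RNA of the nuclear reader and of Ythdf1 and Ythdf3 was thus more abundant, per transcript, than that of both subunits of the catalytic core.

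The first comparison asks how much of each message was newly made. The labeled to unlabeled ratio of exon sums was set against that of the median gene, because each column is scaled to its own total. The median gene had a log2 ratio of -0.26, and all differences below are relative to it. Of the 10 members, 8 were below the median gene, as 50% of genes are by definition. A difference of at least 2-fold below the median was seen in 2 members, where 14.8% of the 14118 genes had one, and no member was 2-fold above it, where 21.9% had one. The median of the 10 relative log2 ratios was -0.60, inside the quartiles of all genes, -0.68 and 0.84.

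The catalytic core was on one side of the median gene and the other members were on the other. Mettl3, the methyltransferase itself, had an exon sum of 304 in the labeled and 247 in the unlabeled library. Mettl14, its partner, had 262 and 241. Both were more abundant in the labeled library, with relative log2 ratios of 0.56 and 0.38 (percentiles 67.9 and 62.7 of genes). For Mettl3 the excess in the labeled library lay in its short transcripts Mettl3-213 and Mettl3-210, while the full-length Mettl3-201 had exon values of 54.6 and 54.9 and Mettl3-214 had 26.5 and 29.9. When transcripts of all biotypes were summed, and the median was taken over genes of all biotypes, the value of Mettl14 was -0.05. Among the other writer subunits, Wtap, the adaptor that places the core in nuclear speckles, had 463 in the labeled and 862 in the unlabeled library. Zc3h13, which keeps the complex in the nucleus, had 113 and 157. Rbm15, an RNA-binding subunit that recruits the complex to its sites, had 41.2 and 70.5. All 3 were lower in the labeled library, and their relative log2 ratios were -0.64, -0.22 and -0.52. With all biotypes summed, the value of Rbm15 was -1.17, past the 2-fold limit. The reference differs in that setting, as the median is then taken over genes of all biotypes. Zc3h13, which has no listed transcript of another biotype, went from -0.22 to -0.57 through the reference alone.

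Of all members, the cytoplasmic readers Ythdf2 and Ythdf3 had the lowest labeled to unlabeled ratios. Ythdf1, which has been linked to translation, had an exon sum of 252.5 in the labeled and 471 in the unlabeled library, a relative log2 ratio of -0.64. Ythdf2, the reader that promotes decay, had 93.5 and 226, a relative log2 ratio of -1.02. Ythdf3, their paralog, had 254 and 666, a relative log2 ratio of -1.13 (percentile 11.7). These last are the 2 members past the 2-fold limit, and neither passed it when genes with a mean exon value of 10 or less were left out of the reference, where their values were -0.87 and -0.99. The 3 coding transcripts of Ythdf3 were alike in this measure, with labeled to unlabeled exon ratios from 0.364 to 0.390. They overlap over most of their span, so they are not 3 separate observations. Ythdc1 had 408 and 722, and the eraser Alkbh5 had 30.7 and 61.3. Their relative log2 ratios were -0.56 and -0.74, within the range of the other readers and writers.

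**Figure D1:**
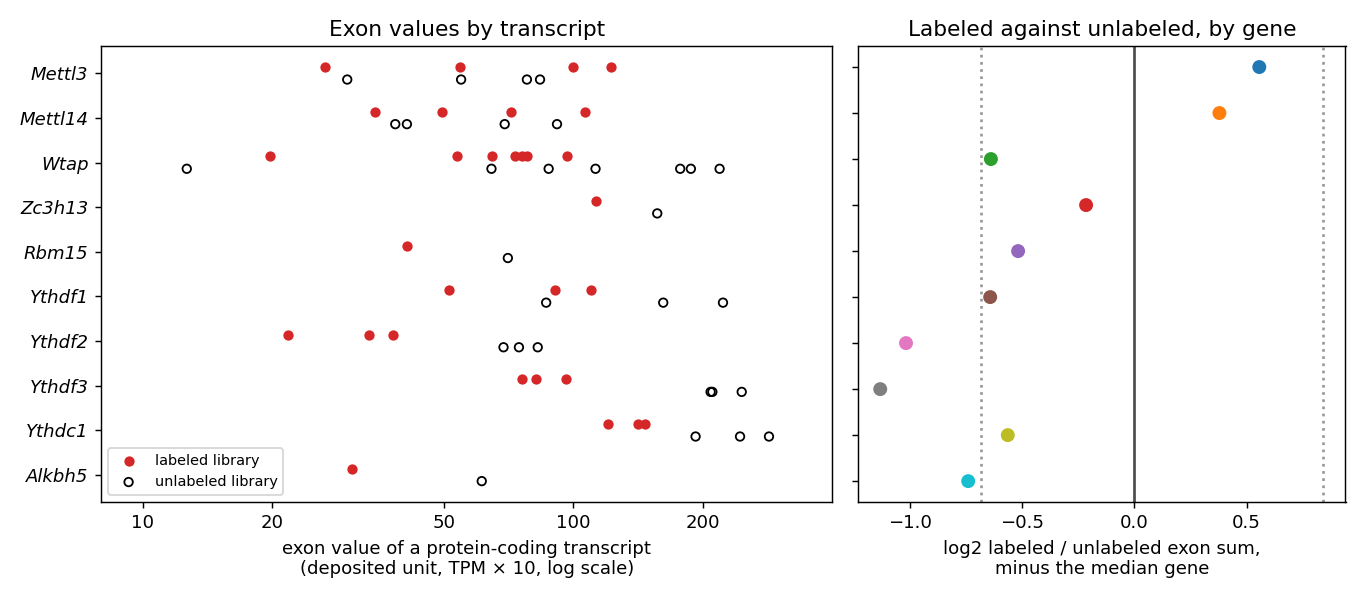
Left, exon value (deposited unit, log scale) of each protein-coding transcript of the 10 genes in the labeled (red) and unlabeled (open) library, 1 point per transcript and no error bars, as there is 1 library per group. Right, log2 ratio of labeled to unlabeled exon sums relative to the median gene (0), with dotted lines at the quartiles of all genes, -0.68 and 0.84. Mettl3 and Mettl14 lie right of 0 and the other 8 genes left of it, with Ythdf3 farthest at -1.13.

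The second comparison asks how much of each message still carried its introns. The intron to exon ratio is made within a library and needs no scaling between libraries. New RNA is expected to hold more intron, and in the median gene the ratio was 0.555 in labeled and 0.114 in unlabeled RNA. Summed over coding transcripts, 9 of the 10 members had a higher ratio in labeled RNA. By transcript, the opposite order was seen in 2 of the 30 members and in 7.82% of all 31386. The member transcripts thus went the way of most transcripts. The medians of the 10 members were 0.552 in labeled and 0.0843 in unlabeled RNA. The labeled ratio exceeded the unlabeled one by a median of 6.78-fold in the members, beside 4.64-fold over all genes.

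From sums, the lowest ratios belonged to Zc3h13, whose single coding transcript in the table spans 19 exons and 60054 bases. Its intron value was 24.6 in labeled and 4.27 in unlabeled RNA, giving ratios of 0.218 and 0.0272 (percentiles 19.6 and 16.8 of genes). Ythdc1 came next, with ratios of 0.321 and 0.0470, and Mettl14 had 0.347 and 0.0809. The most abundant transcript of Mettl14 alone had 0.178 and 0.0402, a labeled ratio below that of Zc3h13. Wtap had 0.590 and 0.0878, Ythdf1 had 0.489 and 0.0690, and Ythdf3 had 0.513 and 0.114. These 6 genes lay in the lower part or near the middle of the distribution, with percentiles of 19.6 to 52.5 in labeled and 16.8 to 50.1 in unlabeled RNA. Alkbh5 stood apart in the size of the change, with a labeled ratio of 0.888 and an unlabeled ratio of 0.0760, an 11.7-fold difference that was the largest of the 10.

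Ythdf2 had more intron than exon signal in labeled RNA in each of its 3 coding transcripts. A labeled ratio of 1 or more was seen in 28.2% of all 31386 transcripts. The 3 Ythdf2 transcripts overlap over most of their length, so they are not 3 separate observations. In labeled RNA the intron and exon values were 44.7 and 38.1 for Ythdf2-203, 47.9 and 33.6 for Ythdf2-204, and 51.1 and 21.8 for Ythdf2-201. In unlabeled RNA the same transcripts had intron values of 7.38, 14.6 and 16.6 beside exon values of 82.7, 74.8 and 68.9. The labeled ratios were thus 1.17 to 2.35 and the unlabeled ratios 0.0892 to 0.241. Its paralogs Ythdf1 and Ythdf3 had labeled intron values of 35.2 to 44.7 and 41.7 to 44.4, beside 44.7 to 51.1 in Ythdf2, but labeled exon values of 51.5 to 110 and 75.9 to 96.1. The difference among the 3 paralogs in the labeled ratio therefore lay mostly in the exon values. From sums the labeled ratio was 1.54, and it was 1.97 when 0.1 times the unlabeled values was subtracted from the labeled values, to allow for leakage of unlabeled RNA.

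**Figure D2:**
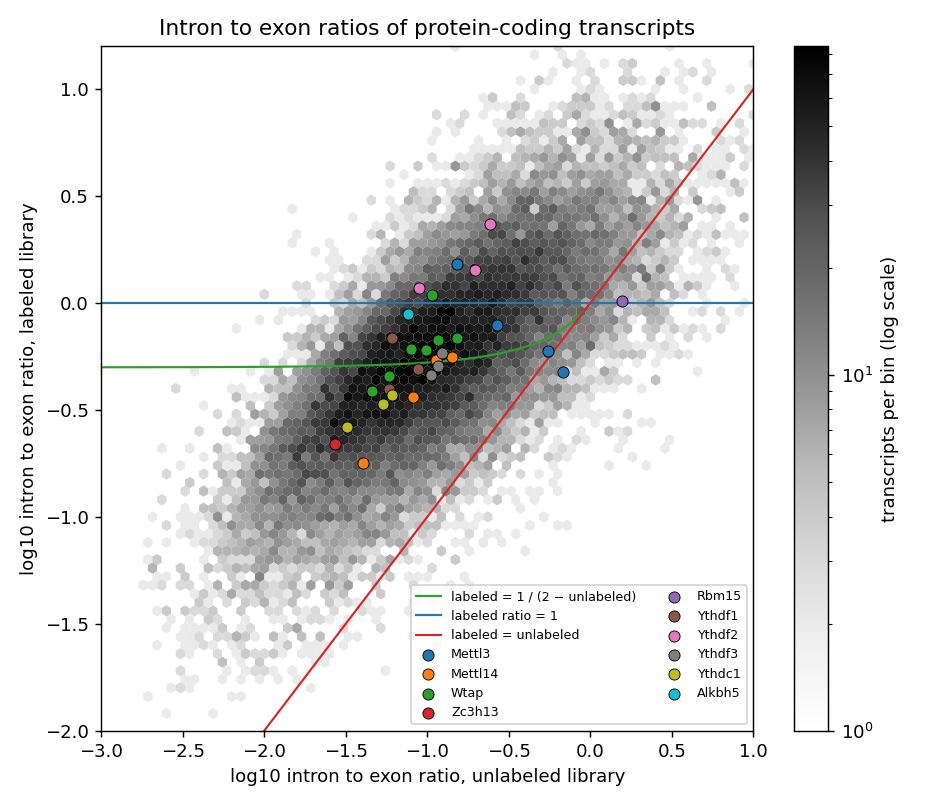
Intron to exon ratio in the unlabeled (x) and labeled (y) library, both as log10, for the 30 member transcripts (coloured by gene) over all 31386 protein-coding transcripts with values above 0 and a mean exon value above 1 (grey bins, of which 411 transcripts lie outside the axes). The blue line marks a labeled ratio of 1, the red line equal ratios, and between the green and the blue line the model has a single solution. The 3 Ythdf2 transcripts lie above the blue line, and Rbm15 and 1 short Mettl3 transcript lie below the red line.

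Rbm15 was the exception, with a higher ratio in unlabeled RNA. Its coding transcript Rbm15-201 (ENSMUST00000061772, minus strand of chromosome 3, 107325421 to 107333673 on GRCm38) has 2 exons and 1 intron of 3910 bases, from 107326305 to 107330214. The intron value was 42.0 in labeled and 110.5 in unlabeled RNA, beside exon values of 41.2 and 70.5. The ratios were 1.02 and 1.57, and the unlabeled one lay at percentile 93.0 of genes. An unlabeled ratio above the labeled one was seen in 7.82% of all 31386 transcripts. The annotation also holds Rbm15-202 (ENSMUST00000197769, 107327135 to 107333101), a single-exon transcript of the biotype retained intron, which covers 3080 of the 3910 intron bases, or 78.8%. Its exon value was 48.8 in labeled and 119 in unlabeled RNA, so the labeled to unlabeled ratio was 0.409 for Rbm15-202, 0.380 for the intron of Rbm15-201 and 0.584 for its exons. The intron signal of Rbm15 and the retained-intron transcript thus had close values in both libraries, and the reads of these overlapping features cannot be told apart here. The transcripts differ at the end of the first exon, at 107330215. The sequence of each across that point is shown because it separates the spliced from the unspliced form, with the last 15 bases of the exon in lower case and the next 15 bases of the transcript in capitals, 5′ to 3′ in the sense strand, from the GENCODE M21 transcripts.
Rbm15-201: tgatcattgtccgtgCAAAACTGGTGAACA
Rbm15-202: tgatcattgtccgtgGTGCGTCCTAAAGTC
The spliced form continues at 107326304, and the unspliced form runs into the intron, which opens with GT as donor sites do.

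Mettl3 held the next highest unlabeled ratio of the members, 0.480 from sums (percentile 81.5), with 0.664 in labeled RNA. Its 4 coding transcripts differed among themselves. RSEM, the tool that made the values, divides reads shared by overlapping transcripts between them, so these isoform values are estimates. The full-length Mettl3-201 (ENSMUST00000022767, minus strand of chromosome 14, 52294841 to 52305128, 11 exons) had an exon value of 54.6 in labeled and 54.9 in unlabeled RNA. Its intron values were 43.3 and 14.8, which gave ratios of 0.792 and 0.269. The short transcripts Mettl3-213 and Mettl3-210, each of 3 exons at the 3′ end of the gene, were listed at higher exon values, 122 and 100.1 in labeled and 78.1 and 83.8 in unlabeled RNA. Their introns had 58.2 and 59.9 in labeled and 53.0 and 46.2 in unlabeled RNA, so the unlabeled ratios were 0.678 and 0.552. The high unlabeled ratio of the gene thus came from the short transcripts. Mettl3-214, which covers the 5′ part of the gene, had ratios of 1.52 and 0.152.

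The introns of the short Mettl3 transcripts lie over another gene. Tox4, on the opposite strand, ends in an exon of 3201 bases from 52293201 to 52296401. That exon and the other exons of Tox4 cover 82.0% of the intron bases of Mettl3-213 and 87.0% of those of Mettl3-210, but 14.5% of those of Mettl3-201. Its most abundant transcripts, Tox4-201 and Tox4-203, had exon values of 76.2 and 62.2 in labeled and 111 and 141 in unlabeled RNA. Whether the reads were counted by strand is not given in the sources used here, and without strand the reads of both genes cannot be told apart. The last Tox4 exon also covers the last exon of both short transcripts, the middle exon of Mettl3-213 and the last 2 exons of Mettl3-201. The same therefore holds for the exon values of these 3 transcripts and for the labeled to unlabeled exon ratio of Mettl3. It holds as well for the half-lives of Mettl3-210 and Mettl3-201. The part of Tox4 in these values was not tested. Without the member transcripts whose introns lie by 50% or more in exons of other transcripts, a choice made after seeing the data, Mettl3 had ratios of 1.03 and 0.228. A junction of each of the 3 overlapping Mettl3 transcripts is shown, because the last 2 are exon skips that set the short transcripts apart from Mettl3-201, again with the exon end in lower case and the next exon in capitals.
Mettl3-201: aaggaacactgcttgGTTGGTGTTAAGGGA
Mettl3-213: aaggaacactgcttgGTTCGTTCCACCAGT
Mettl3-210: gtgattgtagctgagGATTACTCTTGGAAA
The first joins 52296664 to 52296581 and is also part of Mettl3-210. The junction of Mettl3-213 skips that exon and joins 52296664 to 52296186, and the one of Mettl3-210 joins 52296516 to 52295093.

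**Figure D3:**
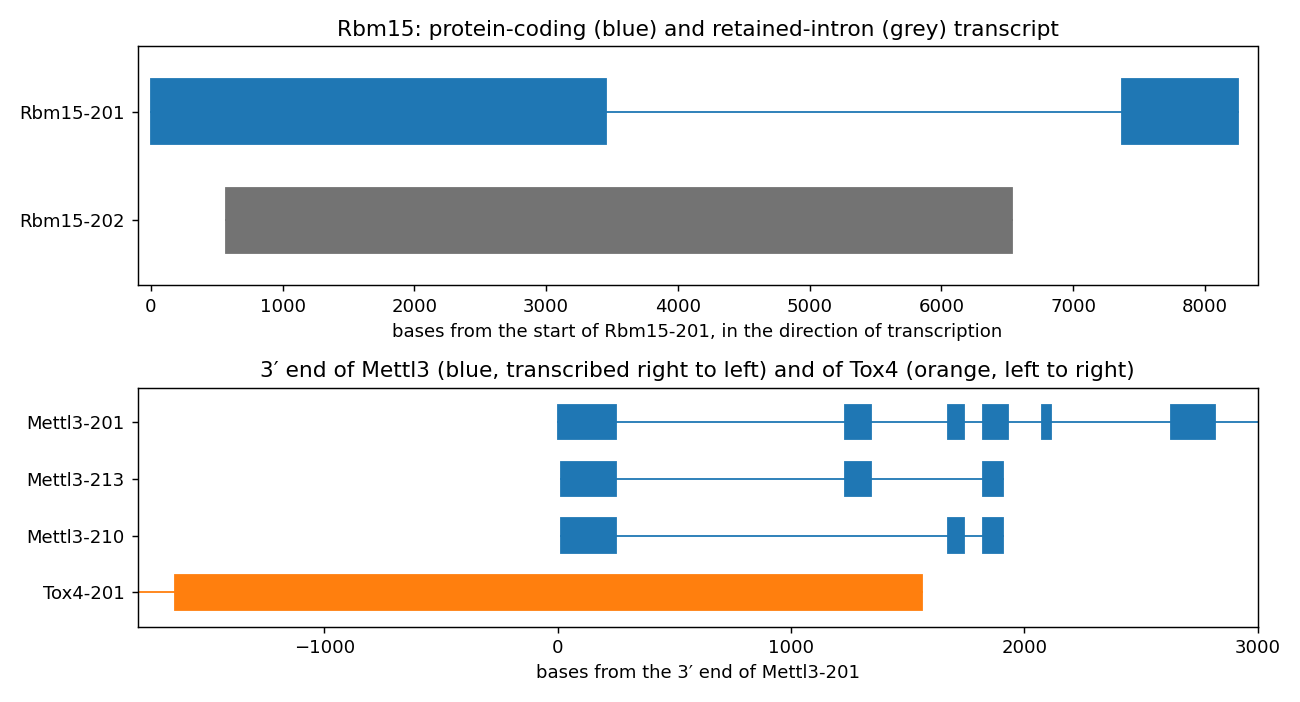
Annotated exons (boxes) and introns (lines) drawn to scale, in bases from the start of Rbm15-201 (top) and from the 3′ end of Mettl3-201 (bottom). The retained-intron transcript Rbm15-202 (grey) covers 78.8% of the intron of Rbm15-201, and the last exon of Tox4 (orange) covers most of the introns of Mettl3-213 and Mettl3-210.

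The genes also have 22 listed transcripts of other biotypes, 11 of them from Mettl3 and 6 from Ythdc1. The most abundant of these for Mettl3 was the retained-intron transcript Mettl3-209, with exon values of 125 in labeled and 102 in unlabeled RNA, close to those of the short coding transcripts it overlaps. For Ythdc1 it was Ythdc1-208, annotated as a target of nonsense-mediated decay, with 121 and 211. Its labeled to unlabeled ratio of 0.573 lay within the range of the 3 coding transcripts of Ythdc1, 0.495 to 0.626. For Ythdf2 it was Ythdf2-202, with 36.3 and 68.2. Alkbh5-202 had 1.27 and 7.73, Ythdf3-204 had 18.7 and 39.0, and Mettl14-205 had 2.35 and 15.2. The 4 single-exon retained-intron transcripts, compared after their values were seen, differed in direction. Mettl3-215 and Ythdc1-209 were 5.00 and 4.47 times as high in labeled as in unlabeled RNA, whereas the ratios were 0.409 for Rbm15-202 and 0.155 for Mettl14-205.

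The last comparison concerns the rates of processing and degradation. In the model used by the study, RNA is made as a precursor with introns, is processed at one rate and is degraded at another, and the pair of intron to exon ratios after the pulse determines both rates. The model requires a labeled ratio under 1 that exceeds the unlabeled one. Of the 30 member transcripts 23 met this, or 76.7%, beside 66.7% of all 31386 transcripts. The labeled ratio was 1 or more in 6 member transcripts (28.2% of all). These are the 3 of Ythdf2, Rbm15-201, Mettl3-214 and Wtap-206. In Mettl3-213 alone the labeled ratio was below 1 and also below the unlabeled one (5.1% of all). Rbm15 and Ythdf2 therefore have no rates.

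An exact solution existed for 13 of the 23 transcripts, 1 solution in 10 and 2 solutions in 3. The other 10 had none, or 43.5%, beside 57.2% of all compatible transcripts. For these the study takes the closest fit along the curve of one equation (1-variable fit). The rates were averaged over transcripts with the exon value as weight, as the study does, and turned into half-lives. The study checked its degradation rates mainly by correlation with published ones, which was higher for highly expressed genes. The absolute scale in minutes was not checked here. The degradation half-life was 7.35 min for Mettl3, 11.4 min for Mettl14, 11.2 min for Wtap and 18.8 min for Zc3h13. It was 7.02 min for Ythdf1, 4.64 min for Ythdf3 and 10.7 min for Ythdc1. Alkbh5 had 271 min, at percentile 97.0 of the 9338 genes with rates. Its labeled ratio was 0.888, and the study expects lower precision close to a labeled ratio of 1, where the pulse was probably too short. The median of the 8 genes was 10.95 min, and that of all genes 17.7 min with quartiles of 9.85 and 36.1 min. Processing half-lives were 28.4 min for Alkbh5, 8.68 min for Mettl3 and 2.87 to 4.17 min for the other 6 genes, beside a median of 3.91 min over all genes.

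The half-lives of transcripts of the same gene differed widely. Within Ythdf1 they ran from 5.72 min for Ythdf1-201 to 55.3 min for Ythdf1-203, a 9.67-fold range, although the labeled to unlabeled exon ratios of its transcripts ran only from 0.495 to 0.596. The ranges were 5.15 to 24.3 min in Wtap, 6.62 to 26.4 min in Mettl14, 5.26 to 22.02 min in Mettl3, 3.16 to 10.6 min in Ythdf3 and 8.11 to 14.7 min in Ythdc1. Mettl3-201, the full-length transcript, had an exact solution of 22.02 min. For Ythdf1-202, Wtap-202 and Ythdf3-201 there were 2 exact solutions each, and the one not chosen was 0.902, 1.35 and 0.860 min. The fit also mattered. When both rates of the 10 transcripts without an exact solution were fitted at once (2-variable fit), their half-lives were lower in every case, between 0.0892 and 3.99 min, and the gene median was 3.93 min. Over all settings tried, the half-life of Alkbh5 ran from 267 to 653 min, that of Mettl3 from 0.142 to 22.02 min, that of Ythdc1 from 3.27 to 14.7 min and that of Ythdf3 from 1.93 to 19.2 min. The ranges were 3.81 to 26.4 min for Mettl14, 4.31 to 28.3 min for Wtap, 2.12 to 13.9 min for Ythdf1 and 3.99 to 18.8 min for Zc3h13. Processing half-lives depended on the settings too. That of Mettl3 was 0.299 min with the 2-variable fit, 2.11 min from summed values and 12.9 min over exact solutions alone. That of Ythdf3 was 1.68 min with the solution of Ythdf3-201 not chosen and 6.58 min with leakage subtracted. That of Alkbh5 stayed at 28.4 to 28.55 min wherever it had a rate. Alkbh5 has 1 coding transcript with 1 exact solution. Changes of the filter, the fit, the choice of solution or the summing could therefore move neither of its half-lives. Its degradation half-life was 267 min with the pseudocount and 653 min with the second library read as total RNA. With leakage subtracted, the labeled ratio of Alkbh5 was 1.09, so that it then has no rate.

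**Figure D4:**
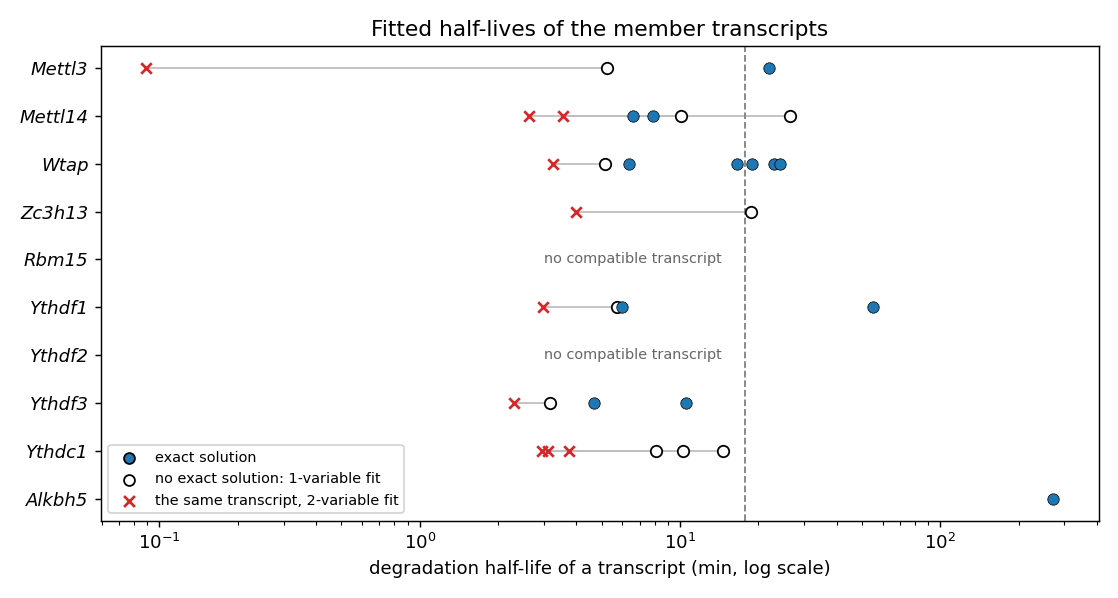
Degradation half-life (min, log scale) of each compatible protein-coding transcript, 1 point per transcript. Blue points are exact solutions, open points the 1-variable fit of transcripts without one, and red crosses the 2-variable fit of the same transcripts. The dashed line is the median of all genes with rates, 17.7 min. Alkbh5 lies far to the right at 271 min, and each red cross lies left of its open point.

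The exon values themselves give a further reading of turnover, since the fitted rates imply a labeled to unlabeled exon ratio that was not used to find them, although the labeled and unlabeled exon values enter the intron to exon ratios as well. Measured and implied log2 ratios were each set relative to the median of the 20920 compatible transcripts. For Ythdf3 the measured value was -0.90 and the implied one 2.45, a difference of 3.34. Ythdf1 had -0.41 and 1.48, Ythdc1 had -0.33 and 1.04, and Wtap had -0.46 and 0.62. As weighted means of these 4 genes the rates thus imply more label than the median transcript, while less was measured. Single transcripts did not all share this, since Wtap-201, Wtap-204, Wtap-205 and Ythdf1-203 had implied values of -0.32, -0.16, -0.48 and -1.64, and Wtap-204 and Wtap-207 had measured values of 0.06 and 0.23. Alkbh5 had -0.51 measured and -3.99 implied, less label in both. Zc3h13 differed by 0.13, from 0.02 to 0.15. Mettl3 and Mettl14 differed by under 0.1 as weighted means, but their single transcripts differed in both directions, from -1.13 to 0.58 in Mettl3 and from -1.12 to 1.37 in Mettl14. In 17 of the 23 member transcripts the implied value was the higher one, beside 48.1% of all compatible transcripts. The median absolute difference was 1.37 in the members and 1.34 in all compatible transcripts, so the size of the disagreement was near that of transcripts in general. Implied and measured log2 ratios were hardly correlated in either set. Over all 20920 compatible transcripts the Pearson correlation was 0.128 and the Spearman correlation 0.0632. Over the 23 member transcripts they were -0.085 and -0.186.

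**Figure D5:**
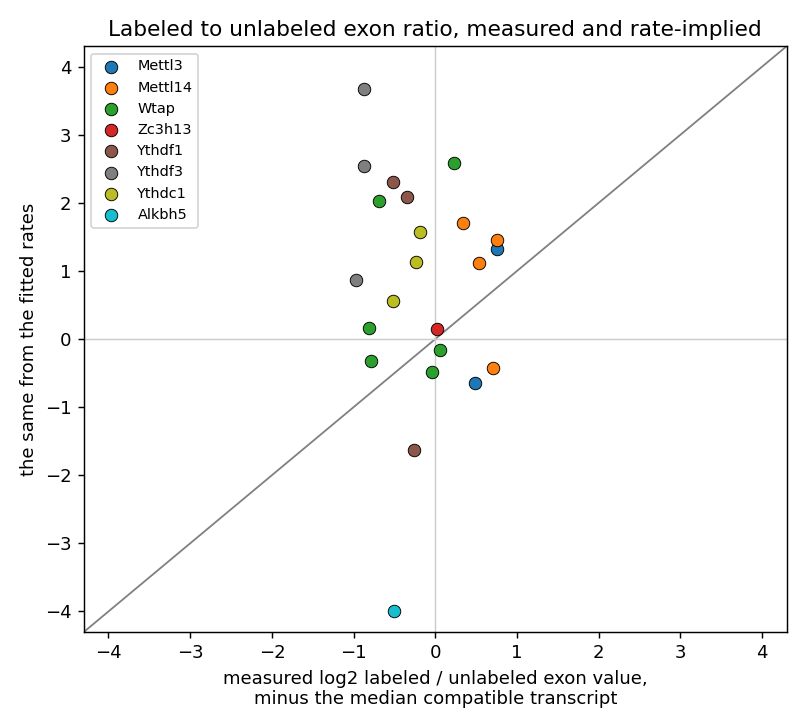
Log2 labeled to unlabeled exon ratio relative to the median compatible transcript, as measured (x) and as implied by the fitted rates (y), 1 point for each of 23 member transcripts coloured by gene, with the line of equality. Most points lie above the line, Ythdf3-203 and Ythdf3-201 farthest at the top left, and Alkbh5 lies at -0.51 measured and -3.99 implied.

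The other genes of the pathway were taken from a list of 22 symbols. All 22 were measured, 16 were below the median gene in the labeled to unlabeled exon ratio, 6 were at least 2-fold below (14.8% of all genes) and 1 was at least 2-fold above (21.9%), with a median relative log2 ratio of -0.53. The rest of the writer complex resembled the regulatory subunits in direction. Virma, its scaffold, had an exon sum of 116 in labeled and 277 in unlabeled RNA and a relative log2 ratio of -0.996. Cbll1, a ubiquitin ligase in the complex, had 554 and 954 with -0.53, and Rbm15b, the paralog of Rbm15, had 17.5 and 27.9 with -0.41. The intron to exon ratios of Rbm15b were 8.22 in labeled and 2.42 in unlabeled RNA, in the opposite order to those of Rbm15. Fto, the second m6A eraser, was on the other side of the median gene from Alkbh5, with 75.2 and 51.0 and a relative log2 ratio of 0.82. Ythdc2, a YTH reader that acts in meiosis, had 20.9 and 49.9 with -0.997.

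Of the 9 other proposed readers on the list, 5 were at least 2-fold below the median gene, Igf2bp1, Igf2bp2, Igf2bp3, Fmr1 and Prrc2a, with relative log2 ratios from -1.62 to -1.23. The other 4 had -0.41 (Hnrnpc), -0.29 (Eif3a), 0.25 (Hnrnpa2b1) and 0.75 (Rbmx). The Igf2bp proteins bind and stabilize modified messages. The sixth gene was Ahcy, which clears the product of methylation, with -1.42, and the one above was Mettl5, a methyltransferase of ribosomal RNA, with 1.23. Mat2a, the synthetase of the methyl donor S-adenosylmethionine, had 526 and 1247 with -0.99.

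The base composition of the member messages bears on the assay, because 4sU replaces uridine. The spliced coding transcripts of the 10 genes held between 96 uridines in Mettl3-210 and 2313 in Mettl14-202. As a share of bases, uridine ran from 18.7% in Zc3h13-201 (percentile 7.16 of the 31386 transcripts, whose median was 23.7%) to 34.8% in Wtap-206. The 3 Ythdf3 transcripts held 27.5% to 31.9% uridine, with relative log2 exon ratios near that of the gene, -1.13. Among other transcripts rich in uridine the values went both ways. Mettl14-202 had 32.1% and a relative log2 ratio of 0.52. Wtap-206, which holds 2.4% of the coding exon value of Wtap, had 34.8% and 0.90. Ythdf2-201 had 29.5% and -1.40, and Wtap-204 had 30.5% and -0.18. The part of uridine content in the labeled values was not tested. The letters GGACT, the most common core of the m6A consensus, were counted in the sense strand of the spliced transcripts. They are present in 82.3% of all 31386 transcripts, at a median of 1.03 per kilobase. Alkbh5-201 held 10 copies, Zc3h13-201 held 7 and Mettl3-201 held 4, whereas each Ythdf3 transcript held 1 and Ythdc1-201 held none. Methylation was not measured, and a copy of these letters says nothing of whether it is modified.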

How the data were processed

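RNA of 1 culture was measured in 2 libraries, labeled and unlabeled. Per the study's methods and the labels, the authors removed reads of ribosomal RNA, aligned the rest to exonic and intronic sequences of Ensembl release 91 (GRCm38) with STAR (2.5.0 in the submitters' processing notes) and quantified them with RSEM, which assigns reads shared by transcripts to each of them in part. They deposited 1 exon value per transcript, and 1 intron value where there are introns, called TPM; the unit is TPM times 10. No counts are kept, so depth, intervals and floors cannot be given. Of 121429 transcripts, 90.9% were found in GENCODE M21. Fold calls used sums over the protein-coding transcripts of a gene with a mean exon value above 1. Rates followed the study's equations on a grid of 3999 points with bisection, with 10 min as the unit of time, and the solver was tested on simulated data. No test was possible with 1 library per group. Alternatives were other filters (none, above 10), a pseudocount of 0.1, 0.1 times the unlabeled value subtracted from the labeled one as leakage, other units of description, other choices among solutions, and the second library read as total RNA with a labeled share of 0.1. All 10 members were named. Of the coding transcripts that hold 10% or more of their gene's exon value, some were named and others entered only ranges and figures. A few transcripts under that share were named as well. Also named were the most abundant transcript of another biotype, the first 5 genes of the pathway list and the gene nearest in the 4 deposited values. The members and lists were chosen with earlier results of these data known. Protein sequences were not used here. Software versions were matplotlib 3.10.9, scipy 1.17.1, pandas 2.3.3, numpy 2.4.6 and Python 3.11.15.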

Additional observations from a re-analysis of the deposited data

How the results depend on the processing

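No paired analysis was possible because each group holds a single library and nothing was tested. With no replicates and no depth, a value was taken as moved when an alternative changed it by more than 1.5 times. The median relative log2 exon ratio stayed below 0 under all 6 alternatives, from -0.99 to -0.46. The number of members at least 2-fold below the median gene was 2, but 4 with all biotypes summed, 1 with the most expressed transcript of each gene and 0 with a mean exon value above 10. In these 3 settings the reference median changed too. The share of all genes past the limit was found for the main setting only, 14.8%. The counts of 4, 1 and 0 thus have no share to be read against. The number of compatible transcripts was 23, and 7 when only the most expressed transcript of each of the 10 genes was considered, which follows from the smaller number considered. The median half-life of 10.95 min was 3.93 min with the 2-variable fit, and 10.7 min over transcripts with an exact solution alone, a choice made after seeing the data. The cause was not tested. No other median or count for the members as a group moved. Unknown depth limits all ratios.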

Other observations

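Genes whose most abundant transcript had deposited values most like those of each member were sought among 12643 genes, by the distance in the 4 ln values, each divided by its SD over all transcripts. For Wtap the nearest gene was another member, Ythdf1, at a distance of 0.0837. The nearest gene was Ankrd10 for Mettl3, Spc25 for Mettl14, Ccnc for Zc3h13, Oxsr1 for Ythdf1, Cdc23 for Ythdf3, Pkp4 for Ythdc1, Shprh for Alkbh5 and Spred1 for Ythdf2, at distances of 0.0793 to 0.136. Rbm15 had the farthest nearest gene, Cmss1 at 0.322, which likewise had a higher intron value in unlabeled RNA (127) than in labeled RNA (34.8). Each distance rests on 4 values from 2 libraries.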
